A study of Mus musculus with 18 samples.

Results

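The IL-12 cytokine family was described here through its 5 subunit genes, Il12a, Il12b, Il23a, Il27 and Ebi3, in dendritic cells that were WT or KO and were either stimulated with lipopolysaccharide (LPS) or left as controls. The members were the rows of the expression table with these gene symbols, 5 of 16614 genes, and all 5 passed the filter on low counts together with the rest of the 11989 genes tested. Il12a, Il23a and Il27 passed it through the LPS libraries alone. RNA came from mouse bone marrow-derived dendritic cells (BMDC), grown over 7 to 10 days in 20 ng/ml GM-CSF together with 100 ng/ml Flt3L and enriched for type 1 conventional dendritic cells (cDC1) by a CD11c+ Xcr1+ sort or by XCR1 antibody and magnetic beads. The groups were KO cells with LPS (n = 5), WT cells with LPS (n = 5), KO control cells (n = 4) and WT control cells (n = 4). The labels used here do not name the deleted gene, the way it was deleted, the strain, the age of the mice, the LPS dose or its duration, or which purification a sample had, and the series title places the study around STAT5 and STAT3. They also do not say whether replicates were separate cultures or mice, so the p-values measure the spread between these samples, which may be technical.

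The members encode the subunits of secreted heterodimers. Il12b encodes p40, which pairs with the Il12a product p35 to form IL-12 and with the Il23a product p19 to form IL-23. Ebi3 pairs with the Il27 product p28 to form IL-27 and has been described to pair with p35 as IL-35. IL-12 made by cDC1 is known for driving interferon-gamma production by T and natural killer cells, IL-23 for sustaining IL-17-producing lymphocytes, and IL-27 for both promoting and limiting T cell responses. In dendritic cells and macrophages, transcription of these genes is known to follow Toll-like receptor signals through NF-kB, IRF and other factors. RNA does not show how much of each dimer was made or released.

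The promoter windows of 3 of the 5 members were found in the RefSeq promoter table of build GRCm38.p6, and they are shown because all members rose with LPS, whose receptor signals through NF-kB. Each window runs from 250 bases before to 50 bases after an annotated start, 5′ to 3′ on the plus strand, and capitals mark matches on either strand to an NF-kB form (GGGA, any 4 bases, then CC) or to a shorter form, GGGGAANTT. Il12a had entries for 2 starts, and the downstream one is printed.
Il12b (chr11:44399813-44400112): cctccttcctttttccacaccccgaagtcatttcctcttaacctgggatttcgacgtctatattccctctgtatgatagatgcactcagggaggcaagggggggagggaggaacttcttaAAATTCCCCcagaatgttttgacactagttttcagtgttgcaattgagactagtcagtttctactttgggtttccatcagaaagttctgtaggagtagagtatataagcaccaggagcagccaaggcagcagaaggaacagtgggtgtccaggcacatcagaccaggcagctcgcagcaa
Ebi3 (chr17:55952373-55952672): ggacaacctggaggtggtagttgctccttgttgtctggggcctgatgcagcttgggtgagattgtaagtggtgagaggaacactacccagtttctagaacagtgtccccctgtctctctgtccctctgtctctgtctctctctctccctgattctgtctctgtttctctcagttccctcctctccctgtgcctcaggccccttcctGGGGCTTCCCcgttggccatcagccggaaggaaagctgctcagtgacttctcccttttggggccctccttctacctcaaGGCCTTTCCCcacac
Il12a (chr3:68691174-68691473): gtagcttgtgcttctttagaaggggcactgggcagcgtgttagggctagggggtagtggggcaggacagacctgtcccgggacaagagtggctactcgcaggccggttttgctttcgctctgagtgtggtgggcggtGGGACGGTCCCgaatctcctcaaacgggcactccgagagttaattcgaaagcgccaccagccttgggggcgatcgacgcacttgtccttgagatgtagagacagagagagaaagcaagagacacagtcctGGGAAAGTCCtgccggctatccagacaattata

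In the Il12b window, GGGGAANTT matched on the minus strand from position -130 to -122 relative to the start, and the longer NF-kB form had no match. The shorter form is held by 1.02% of the 32851 promoter windows in the table. It was chosen after the Il12b window had been read, so this share does not test the match. The Ebi3 window held the longer NF-kB form on the minus strand at -44 to -35 and at 36 to 45. The Il12a window held it at -113 to -104 on the plus strand, at -112 to -103 on the minus strand over the same bases, and at 18 to 27. That form is present in 20.7% of all windows, so its presence does not single out these genes. The upstream Il12a window (chr3:68690394-68690693) held neither form. The STAT form TTCNNNGAA, present in 8.3% of windows, had no match in the 4 member windows, which says only that these letters are not there.

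Library totals lay between 25590100 and 27375200 estimated counts. Levels within a gene are given as CPM, the count as a share of a common library size, scaled by trimmed mean of M values (TMM) factors, which averaged 0.769 in KO LPS, 0.814 in WT LPS, 1.32 in KO control and 1.36 in WT control libraries. All 9 listed cDC1 markers were detected, averaging above 1 CPM in every group, and they summed to medians of 6258 CPM in KO LPS, 6668 CPM in WT LPS, 7996 CPM in KO control and 7627 CPM in WT control libraries. Markers of other cells were lower, with medians in KO LPS and WT LPS libraries of 1109 and 1333 CPM over 8 monocyte and macrophage markers, 169 and 184 CPM over 7 cDC2 markers, and 185 and 149 CPM over 5 plasmacytoid dendritic cell markers. In KO control and WT control libraries the medians, in the same order, were 1862 and 1774, 203 and 215, and 44.5 and 46.4 CPM. The part of these shifts in the LPS response was not tested. The 5 neutrophil markers summed to 0.301 to 1.55 CPM in KO LPS and 0.270 to 0.817 CPM in 4 WT LPS libraries. They reached 59.3 CPM in WT LPS replicate 5 and 16.5 CPM in WT control replicate 4, and their part in the results was not tested.

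LPS raised all 5 subunit genes in both genotypes, and KO cells with LPS held more Il12b RNA than WT cells with LPS. In TPM, a share of transcripts that allows for gene length, Il12b was the most abundant member with LPS, at 1396 ± 276 TPM in KO cells and 655 ± 218 TPM in WT cells (SD, n = 5 each). It ranked 118 of 16614 genes in KO cells and 246 in WT cells. Ebi3 followed at 230 ± 15.9 TPM in KO cells and 202 ± 42.1 TPM in WT cells. Il27 came next at 93.7 ± 13.6 TPM in KO cells and 85.5 ± 18.8 TPM in WT cells. The p35 gene Il12a reached 2.85 ± 1.30 TPM in KO cells and 1.88 ± 0.39 TPM in WT cells, and the p19 gene Il23a 0.66 ± 0.20 TPM in KO cells and 0.792 ± 0.410 TPM in WT cells. Within each genotype the ranges over LPS libraries of neighbours in this order did not overlap, so the RNAs of the shared subunits p40 and EBI3 stood far above those of p35 and p19 in both genotypes with LPS. Without LPS the order differed, with Ebi3 first at 58.1 ± 2.39 TPM in KO and 54.0 ± 5.84 TPM in WT control cells (SD, n = 4 each) and Il12b next at 14.7 ± 1.02 TPM in KO and 13.3 ± 2.60 TPM in WT control cells. The other 3 members were at or near 0 without LPS.

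**Figure D1:**
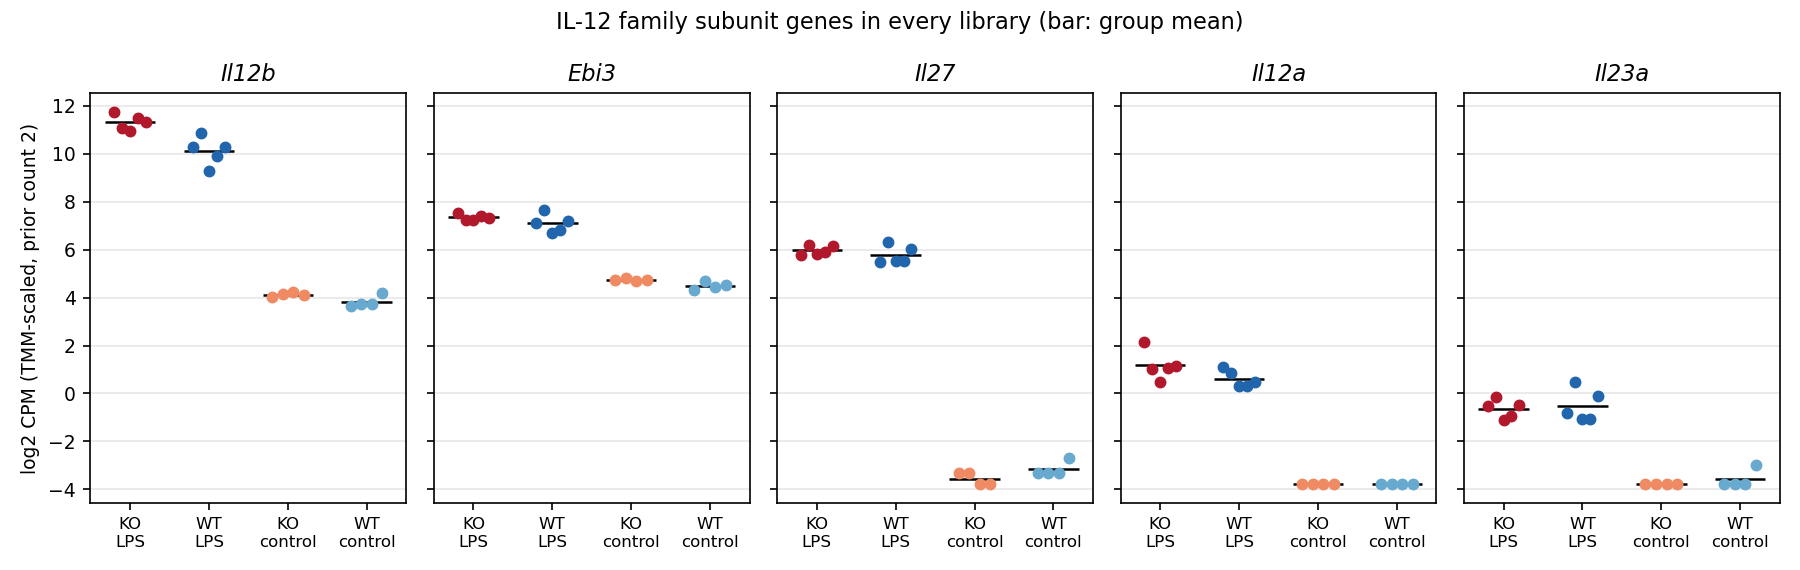
Levels of the 5 subunit genes in every library, as log2 CPM with TMM scaling and a prior count of 2, for KO LPS, WT LPS, KO control and WT control cells; points are libraries in replicate order and bars are group means. All LPS libraries lie above all control libraries for every gene, and for Il12b the 5 KO LPS libraries also lie above the 5 WT LPS libraries.

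Il12b, the subunit shared by IL-12 and IL-23, was the member in which the genotypes separated. With LPS it measured 3419, 2154, 1986, 2868 and 2556 CPM in KO cells (replicates 1 to 5), against 1255, 1857, 621, 958 and 1257 CPM in WT cells. The lowest KO library was above the highest WT library, and WT replicate 2 came nearest to the KO range. The log2 fold change of KO over WT was 1.13 ± 0.20 (SE), a 2.18-fold higher level, with an adjusted p of 0.00114 (edgeR quasi-likelihood test, Benjamini-Hochberg over all genes tested). In bulk RNA, more cells with Il12b RNA and more Il12b RNA per cell cannot be told apart. Over the 27 alternative settings and left-out libraries the fold change stayed between 0.97 and 1.44 on the log2 scale and passed the test in each. Leaving out a control library hardly bears on this contrast and left it at 1.13, while left-out LPS libraries moved it between 0.97 and 1.34.

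Il12b was the 1 of 5 members called between genotypes with LPS. In that comparison 10.8% of all tested genes were called, 5.3% higher and 5.5% lower in KO cells, so 1 of 5 is too few to set the family apart from the background. The median log2 fold change of the 5 members was 0.23, against -0.02 over all tested genes.

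Il12a, the partner that makes p40 into IL-12, did not pass the test. It measured 4.30, 1.98, 1.33, 2.00 and 2.15 CPM in KO LPS libraries, against 2.06, 1.74, 1.18, 1.17 and 1.33 CPM in WT LPS libraries, from 27 to 84 counts per KO library and 26 to 46 per WT library. KO replicate 1 stood apart and the other KO libraries overlapped the WT range. The log2 fold change was 0.65 ± 0.29 with an adjusted p of 0.176, and without KO replicate 1 it was 0.32 (edgeR).

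Il23a, the partner that makes p40 into IL-23, was detected at 8 to 17 counts per KO LPS library and 9 to 26 per WT LPS library. These counts came to 0.614, 0.841, 0.395, 0.451 and 0.651 CPM in KO cells, against 0.493, 1.33, 0.409, 0.405 and 0.855 CPM in WT cells. The groups overlapped over most of their range and the log2 fold change was -0.22 ± 0.37 (edgeR adjusted p = 0.763), which turned to 0.14 without WT replicate 2.

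Il27 and Ebi3, the subunits of IL-27, lay slightly higher in KO cells on average but did not pass the test. Il27 measured 55.5, 73.4, 56.6, 60.2 and 71.9 CPM in KO LPS libraries, against 44.7, 78.8, 46.6, 46.3 and 64.9 CPM in WT LPS libraries, with a log2 fold change of 0.18 ± 0.13 (edgeR adjusted p = 0.427). Ebi3 measured 187, 153, 151, 167 and 162 CPM in KO LPS libraries, against 138, 199, 103, 113 and 149 CPM in WT LPS libraries, with a log2 fold change of 0.23 ± 0.13 (edgeR adjusted p = 0.266). WT replicate 2 was the highest of the 10 libraries for both genes and for Il23a. Without that library both passed, Il27 at 0.33 (edgeR adjusted p = 0.0208) and Ebi3 at 0.39 (edgeR adjusted p = 0.00332), so the call of either gene rests on WT replicate 2. Leaving it out also raised the calls over all tested genes from 1294 to 3345.

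**Figure D2:**
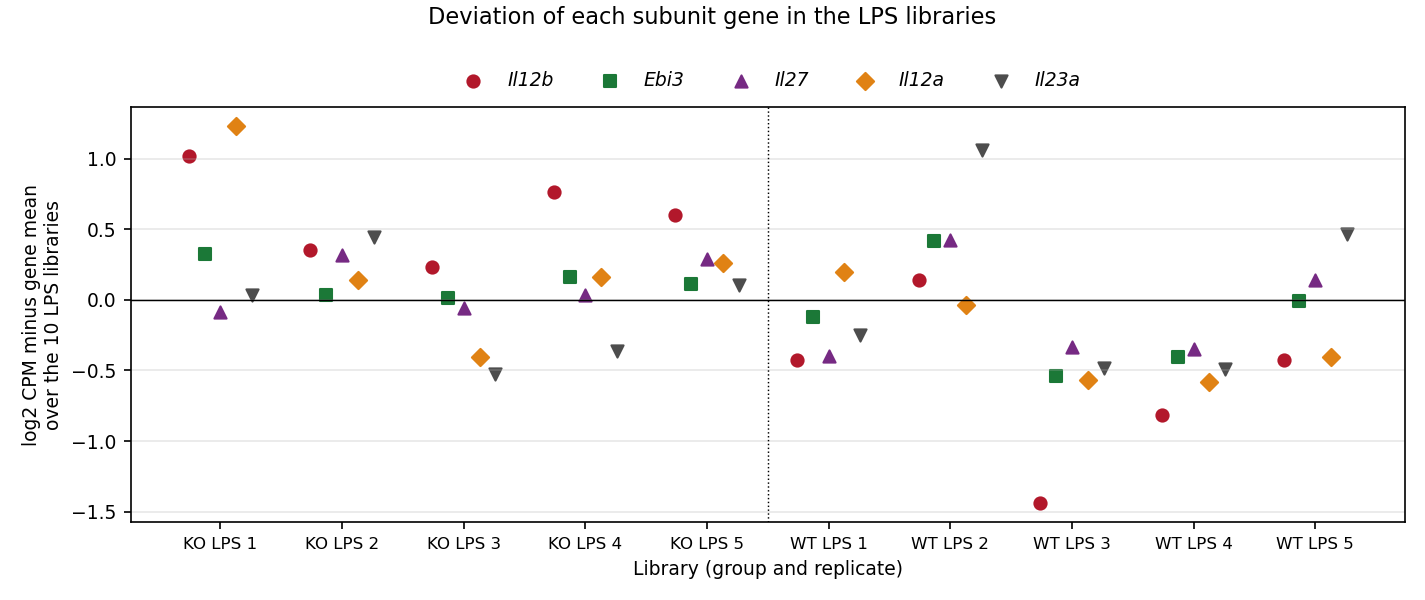
Deviation of each subunit gene in the 10 LPS libraries from its own mean over them, in log2 CPM (prior count 2), with KO libraries left of the dotted line and WT libraries right of it. Il12b is above its mean in all KO libraries and in WT replicate 2, while Il27, Ebi3 and Il23a are each highest in WT replicate 2.

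Before stimulation no member was called between genotypes by edgeR, DESeq2 or limma-voom, and in edgeR none had an unadjusted p under 0.05, where 2.41% of all tested genes were called (1.89% higher and 0.525% lower in KO cells) and 1665 genes had an unadjusted p under 0.05. Il12b measured 16.0, 17.5, 18.6 and 17.4 CPM in KO control libraries, against 12.6, 13.3, 13.4 and 18.3 CPM in WT control libraries. The groups overlapped through WT replicate 4 alone, and the log2 fold change was 0.27 ± 0.25 (edgeR adjusted p = 0.708). Ebi3 measured 26.4, 27.9, 25.7 and 26.5 CPM in KO control libraries, against 20.1, 26.0, 21.6 and 22.9 CPM in WT control libraries, a log2 fold change of 0.23 ± 0.15 (edgeR adjusted p = 0.530). Il27 had 2 counts over the KO control libraries and 6 over the WT control libraries, Il23a had 0 and 2, and Il12a had 0 in both, so no fold between genotypes is given for these genes.

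The LPS response was the larger contrast by far, although most genes responded. All 5 members were called higher with LPS in KO cells, where 86.2% of tested genes were called and 40% were called higher, and all 5 in WT cells, where 85.5% were called and 40.7% were called higher. Il12a, Il23a and Il27 had at most 3 counts in any control library and passed the filter only through the LPS libraries. Their calls as higher were thus all but fixed in advance, and only those of Il12b and Ebi3 can be set beside these shares. The median log2 fold change of the members was 7.22 in KO and 6.37 in WT cells, against -0.10 and -0.06 over all tested genes. Scaling by total counts alone lowers the median over all genes by 0.78 in KO and by 0.74 in WT cells on the log2 scale, and all 5 members were called higher in both genotypes with that scaling too.

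Il12b was 149-fold higher with LPS in KO cells by pooled CPM (log2 7.22 ± 0.30) and 81.7-fold higher in WT cells (log2 6.37 ± 0.29). Ebi3 was 6.15-fold higher in KO cells and 6.13-fold higher in WT cells, the smallest response of the family. Folds here rest on TMM scaling. The Ebi3 response in WT cells, log2 2.63 in the main fit, ranged from 1.87 to 2.72 over the alternatives. Il27 had 6350 counts with LPS against 2 without in KO cells, a ratio of 4546 (95% counting interval 1258 to 37547), and 5962 against 6 in WT cells, a ratio of 1348 (619 to 3675). Such intervals cover counting error only. Il12a had no count in any of the 8 control libraries, and against a floor of 3 counts over the control group it was at least 112-fold higher with LPS in KO cells and at least 72.4-fold higher in WT cells. Il23a was at least 28.2-fold higher with LPS in KO cells on the same floor, and 49.5-fold higher in WT cells (13.2 to 417), where 2 counts were seen without LPS.

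Whether LPS acted more strongly in one genotype was tested as an interaction, and no member was called by edgeR, DESeq2 or limma-voom, where in edgeR 3.82% of tested genes were (1.03% with a larger and 2.79% with a smaller log2 response in KO cells). Il12b was the 1 member with an unadjusted p under 0.05, at 0.85 ± 0.32 on the log2 scale (unadjusted p = 0.0152, adjusted p = 0.151), and without WT LPS replicate 2 it was 1.07 (edgeR adjusted p = 0.0135). Leaving out that library also raised the interaction calls over all tested genes from 458 to 1499. Ebi3 showed -0.01 ± 0.19 (edgeR adjusted p = 0.989), a value so close to 0 that its sign varied with the scaling. The interaction of Il12a, Il23a and Il27 rests on control counts at or near 0 and carries no usable size.

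Ratios between subunits were taken within each LPS library on the TPM scale, with a pseudocount of 0.1, because such ratios do not depend on library scaling. With the pseudocount in both genes, the ratio of Il12b to Il23a was 1119 to 2556 in KO libraries (median 1988), against 611 to 1040 in WT libraries (median 648). The pseudocount lowers these values, as Il23a lay at 0.45 to 0.95 TPM in KO and 0.49 to 1.42 TPM in WT LPS libraries. These ranges did not overlap. The log2 ratio of Il23a to Il12b was -10.86 ± 0.47 in KO and -9.56 ± 0.36 in WT cells (SD, n = 5 each), a difference of -1.30 ± 0.27 (SE) with an exact two-sided permutation p of 0.00794, the smallest that 5 against 5 allows, and 0.0397 after adjustment over 5 ratios. The call was kept without any 1 of the 5 KO LPS libraries (adjusted p 0.0397) and lost without any 1 of the 5 WT LPS libraries (adjusted p 0.0595 to 0.0794, exact permutation tests with 1 library fewer). In the latter runs the difference was -1.22 to -1.41 and the ranges still did not overlap. The loss therefore does not place the separation in any 1 library. The small Il23a counts given above limit the precision of each ratio. This ratio largely repeats the Il12b difference in the same libraries, as Il12b differed by 1.13 and Il23a by -0.22 ± 0.37 on the log2 scale.

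For Il12a the KO and WT ranges overlapped. With the same pseudocount, the ratio of Il12b to Il12a was 344 to 621 in KO libraries (median 503) against 218 to 455 in WT libraries (median 332). The log2 ratio of Il12a to Il12b was -8.96 ± 0.35 in KO and -8.32 ± 0.43 in WT cells, a difference of -0.64 ± 0.25 (exact permutation p = 0.0397, adjusted p = 0.0992). Without KO replicate 1 the difference was -0.77 and passed the test (exact permutation adjusted p = 0.0397). Ebi3 exceeded Il27 by 1.98 to 3.23 times in KO libraries and by 2.08 to 2.92 times in WT libraries, and the difference of the log2 ratio was -0.07 (exact permutation p = 0.675). The ratios of Il12a to Ebi3 (difference 0.29, exact permutation p = 0.317) and of Il12a to Il23a (difference 0.66, exact permutation p = 0.135) did not pass either.

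**Figure D3:**
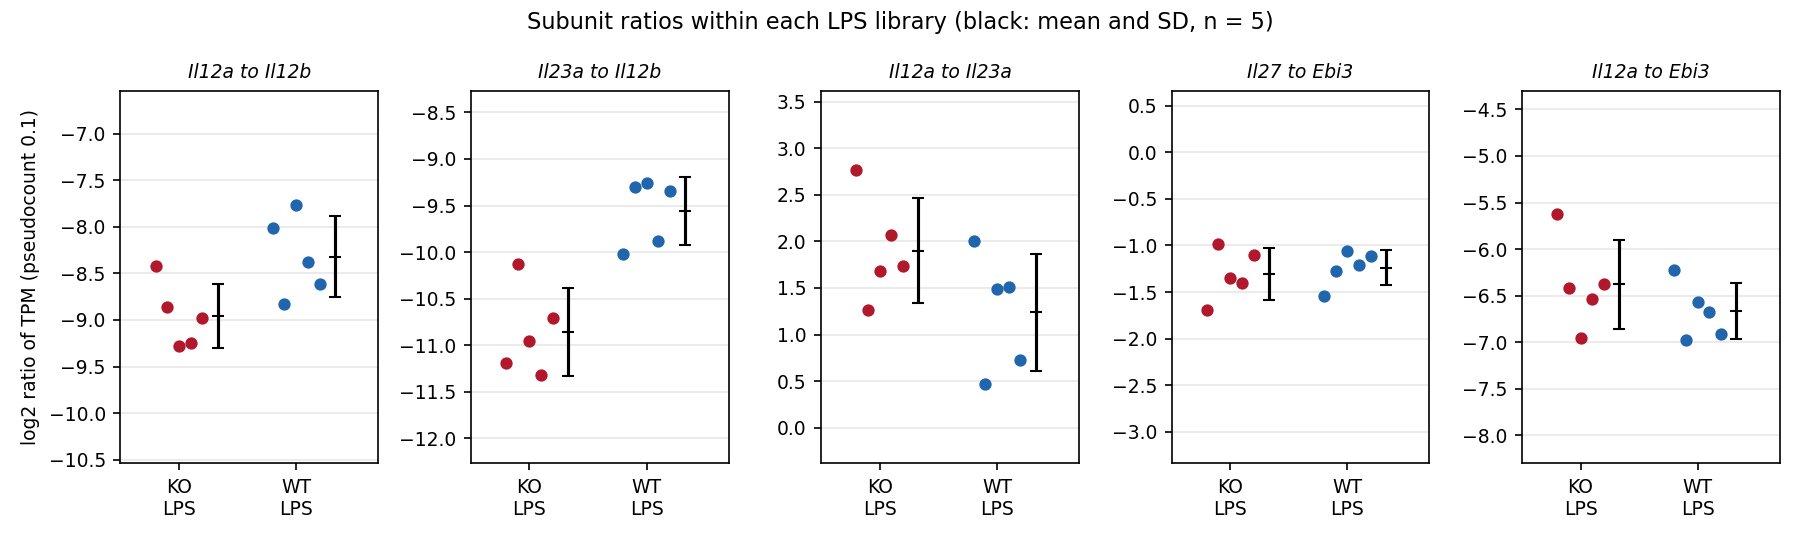
Log2 ratio of TPM (pseudocount 0.1) between subunit genes in each LPS library, KO left of WT, with the mean and SD in black; each panel spans 4 log2 units. The ratio of Il23a to Il12b separates the genotypes without overlap, which largely carries the Il12b difference, while the ratio of Il27 to Ebi3 covers nearly the same range in both.

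Across the 10 LPS libraries the members shared part of their order. WT replicates 3 and 4 ranked 8 to 10 of 10 for every member. The highest library was KO replicate 1 for Il12a and Il12b, and WT replicate 2 for Il23a, Il27 and Ebi3. With each gene centred on its own mean, the root mean square difference in log2 CPM was smallest between Il27 and Ebi3, at 0.211, and largest between Il12b and Il23a, at 0.759. This distance grows with the spread of each gene. The SD over these libraries was 0.767 for Il12b and 0.525 for Il23a, against 0.295 for Il27 and 0.296 for Ebi3. Il23a also rests on 8 to 26 counts per library. The order of pairs therefore does not tell shared movement from spread. The 3 genes nearest to Ebi3 were Irf1 (0.0600), Bhlhe40 (0.0603) and Tmem123 (0.0632), and those nearest to Il27 were Tcf7l2 (0.0788), Myo10 (0.0908) and Mertk (0.0924). Il12b lay nearest to Cavin1 (0.151), Ppfia3 (0.168) and the chemokine gene Ccl9 (0.202). All 3 were called higher in KO cells with LPS, but they were picked for likeness to Il12b over the same libraries. Those calls are therefore no separate result. Il23a lay nearest to the LPS co-receptor gene Cd14 (0.134), Zbtb8b (0.145) and Il1rn (0.161), and Il12a to Rab20 (0.223), Abcc1 (0.249) and Vash1 (0.269). The Ccl9 call was lost in 6 of the 27 alternatives (edgeR adjusted p up to 0.0983), among them when any of KO LPS replicates 1 and 4 and WT LPS replicates 1 and 4 was left out. These distances describe 10 libraries under a shared scaling, and carry no test.

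Among the 5 receptor genes of the family, Il12rb2, the signalling chain of the IL-12 receptor, was called higher in KO cells with LPS, and no receptor gene was called lower. Over all tested genes, 5.3% were called higher and 5.5% lower in this comparison. This list and the pathway lists below were chosen with earlier results of these data known. Il12rb2 measured 65.6, 62.0, 69.4, 63.0 and 62.9 CPM in KO LPS libraries, against 40.2, 43.1, 43.4, 42.4 and 40.4 CPM in WT LPS libraries, with no overlap (log2 fold change 0.62 ± 0.08, edgeR adjusted p = 4.1e-05). It was also higher in KO cells without LPS, at 18.3, 23.0, 21.4 and 17.3 CPM in KO control libraries against 11.7, 16.7, 15.0 and 14.0 CPM in WT control libraries (log2 fold change 0.48 ± 0.09, edgeR adjusted p = 0.00792). LPS raised it in both genotypes, by 1.69 ± 0.09 in KO and 1.54 ± 0.09 in WT cells on the log2 scale, and the interaction was not called (0.15 ± 0.12, edgeR adjusted p = 0.554).

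The other receptor genes did not pass between genotypes. Il12rb1, the chain shared by the IL-12 and IL-23 receptors, averaged 5.88 CPM in KO LPS and 4.58 CPM in WT LPS cells (log2 fold change 0.37 ± 0.17, edgeR adjusted p = 0.181), and passed at 0.53 without WT replicate 2 (edgeR adjusted p = 0.0156). Il23r averaged 0.650 CPM in KO LPS and 0.498 CPM in WT LPS cells and was at or near 0 without LPS. Il6st, which encodes the gp130 chain of the IL-27 receptor, averaged 701 CPM in KO LPS and 647 CPM in WT LPS cells, and its increase with LPS, 0.68 in KO and 0.66 in WT cells on the log2 scale, turned to -0.10 in KO and -0.08 in WT cells under total-count scaling. Il27ra, the specific chain of that receptor, averaged 0.471 CPM in KO LPS, 0.693 CPM in WT LPS, 1.32 CPM in KO control and 0.798 CPM in WT control cells. With LPS Il27ra was about as low as Il23a, which had 8 to 26 counts per LPS library, so its changes rest on few counts. It fell with LPS in KO cells (log2 fold change -1.47 ± 0.26, edgeR adjusted p = 2.8e-05), and in WT cells the change was -0.21 ± 0.26 (edgeR adjusted p = 0.455), or -0.95 under total-count scaling (edgeR adjusted p = 0.00169). The difference between these responses just missed the threshold under TMM scaling (-1.27 ± 0.37, edgeR adjusted p = 0.0606) and passed it without WT LPS replicate 1 (adjusted p = 0.0206) or 2 (adjusted p = 0.0438).

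Of 5 JAK and STAT genes listed as acting below these receptors, 1 was lower and none higher in KO cells with LPS, against 5.5% and 5.3% of all tested genes. Stat3, the main STAT below IL-23 and one of those below IL-27, averaged 781 ± 43.2 CPM in KO LPS and 1002 ± 98.6 CPM in WT LPS cells (SD, n = 5 each), with no overlap (log2 fold change -0.36 ± 0.07, edgeR adjusted p = 0.00352). Without LPS it averaged 170 CPM in KO and 173 CPM in WT control cells (log2 fold change -0.03 ± 0.08, edgeR adjusted p = 0.943). The 4 that did not pass with LPS were the kinase genes Jak1, Jak2 and Tyk2 and Stat4, the STAT known for relaying IL-12, with fitted values from -0.38 ± 0.24 for Stat4 to 0.17 ± 0.08 for Tyk2. The median of the list was -0.04. These 4 were named after their values were seen. All 5 were raised by LPS in both genotypes with TMM scaling, and with total-count scaling 4 were called in KO and 5 in WT cells. With TMM scaling LPS raised 40% of all tested genes in KO and 40.7% in WT cells.

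Of 9 LPS-sensing genes, 1 was lower and 1 higher in KO cells with LPS, against 5.5% and 5.3% of all tested genes. Irak4, a kinase that acts directly below MyD88, averaged 22.9 ± 1.60 CPM in KO LPS and 34.1 ± 1.34 CPM in WT LPS cells, without overlap (log2 fold change -0.57 ± 0.05, edgeR adjusted p = 5.2e-07). In control cells it averaged 38.6 CPM in KO and 39.4 CPM in WT, and the response to LPS differed between genotypes (interaction -0.54 ± 0.08, edgeR adjusted p = 3.3e-04). Tlr4, the LPS receptor, was higher in KO cells without LPS, at 12.2 ± 0.68 CPM in KO and 8.37 ± 0.92 CPM in WT control cells (log2 fold change 0.54 ± 0.11, edgeR adjusted p = 0.0126), a call lost without WT control replicate 1 (0.0501), WT control replicate 3 (0.0698) or KO control replicate 3 (0.0559), as adjusted p. With LPS it averaged 3.45 CPM in KO and 2.48 CPM in WT cells (log2 fold change 0.48, edgeR adjusted p = 0.0329, lost in 7 of the 27 alternatives). The median of the list was 0.07 with LPS.

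Of 18 factors known to induce members of the family, 4 were higher and 2 lower in KO cells with LPS, against 5.3% and 5.5% of all tested genes. The median of the list was 0.17. Nfkb1 averaged 697 ± 41.2 CPM in KO LPS and 572 ± 38.4 CPM in WT LPS cells (log2 fold change 0.29 ± 0.05, edgeR adjusted p = 0.00121). Irf5, which is known to act on Il12b in macrophages, averaged 1002 ± 62.4 CPM in KO LPS and 830 ± 54.6 CPM in WT LPS cells (0.27 ± 0.05, edgeR adjusted p = 0.00173). Both genes separated without overlap. Rel, whose product c-Rel is known to drive Il12b, averaged 1356 CPM in KO LPS and 1103 CPM in WT LPS cells (0.30 ± 0.08, edgeR adjusted p = 0.0172), and Nfkbiz, which encodes a nuclear IkB protein, 893 CPM in KO LPS and 647 CPM in WT LPS cells (0.47 ± 0.13, edgeR adjusted p = 0.0246). For both, the groups overlapped. The Rel call was lost in 5 of the 27 alternatives (edgeR adjusted p up to 0.0940), among them when KO LPS replicate 1 or either of WT LPS replicates 1 and 4 was left out, and the Nfkbiz call in 6 (up to 0.105), among them when any of KO LPS replicates 1 and 4 and WT LPS replicates 3 and 4 was left out.

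The 2 induction factors that were lower were Cebpb, at 7.15 ± 1.09 CPM in KO LPS and 11.1 ± 1.05 CPM in WT LPS cells (log2 fold change -0.63 ± 0.12, edgeR adjusted p = 0.00167), and Batf3, the cDC1 lineage factor, at 11.5 ± 0.49 CPM in KO LPS and 15.0 ± 3.02 CPM in WT LPS cells (-0.38 ± 0.10, edgeR adjusted p = 0.0237). Batf3 averaged 25.0 CPM in KO control and 20.0 CPM in WT control cells, and its response to LPS differed between genotypes (interaction -0.70 ± 0.15, edgeR adjusted p = 0.0119). Its call with LPS was lost in 4 of the 27 alternatives, among them without WT LPS replicate 5 (edgeR adjusted p = 0.0524) and without KO LPS replicate 5 (0.0638). Irf7 was the 1 of 18 called without LPS, at 24.3 ± 5.52 CPM in KO control and 9.51 ± 2.20 CPM in WT control cells (1.35 ± 0.16, edgeR adjusted p = 6.9e-05). Of all tested genes, 1.89% were called higher in KO cells without LPS. With LPS Irf7 averaged 2924 CPM in KO and 2622 CPM in WT cells.

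Of 13 genes known to restrain the family or its inducers, 4 were lower and 1 higher in KO cells with LPS, against 5.5% and 5.3% of all tested genes. The median of the list was 0.13. Bcl3, a nuclear IkB protein, measured 287, 287, 254, 273 and 276 CPM in KO LPS libraries, against 442, 437, 438, 392 and 412 CPM in WT LPS libraries (log2 fold change -0.62 ± 0.07, edgeR adjusted p = 1.3e-05). Nfil3, which is known to limit Il12b in macrophages, averaged 8.07 ± 0.93 CPM in KO LPS and 12.8 ± 3.52 CPM in WT LPS cells (-0.66 ± 0.16, edgeR adjusted p = 0.00984). Socs3, the feedback inhibitor of gp130 receptors, averaged 197 ± 25.2 CPM in KO LPS and 293 ± 68.2 CPM in WT LPS cells, with overlap (-0.58 ± 0.13, edgeR adjusted p = 0.00653). Zfp36, which encodes an RNA-destabilizing protein, averaged 748 ± 51.5 CPM in KO LPS and 943 ± 91.2 CPM in WT LPS cells (-0.33 ± 0.08, edgeR adjusted p = 0.00767). Il10ra, the IL-10 receptor chain, was the gene that was higher, at 1238 ± 53.6 CPM in KO LPS and 905 ± 211 CPM in WT LPS cells (0.45 ± 0.11, edgeR adjusted p = 0.00858), with overlap, and that call was lost in 2 of the 27 alternatives (edgeR adjusted p up to 0.0613). Without LPS none of the 13 was called by edgeR, DESeq2 or limma-voom, and Il10ra and Il10rb had an unadjusted p under 0.05 in edgeR (0.0181 and 0.00528). All 13 were raised by LPS in both genotypes with TMM scaling, where 40% of all tested genes were raised in KO and 40.7% in WT cells. With total-count scaling 12 of 13 were called in each genotype.

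**Figure D4:**
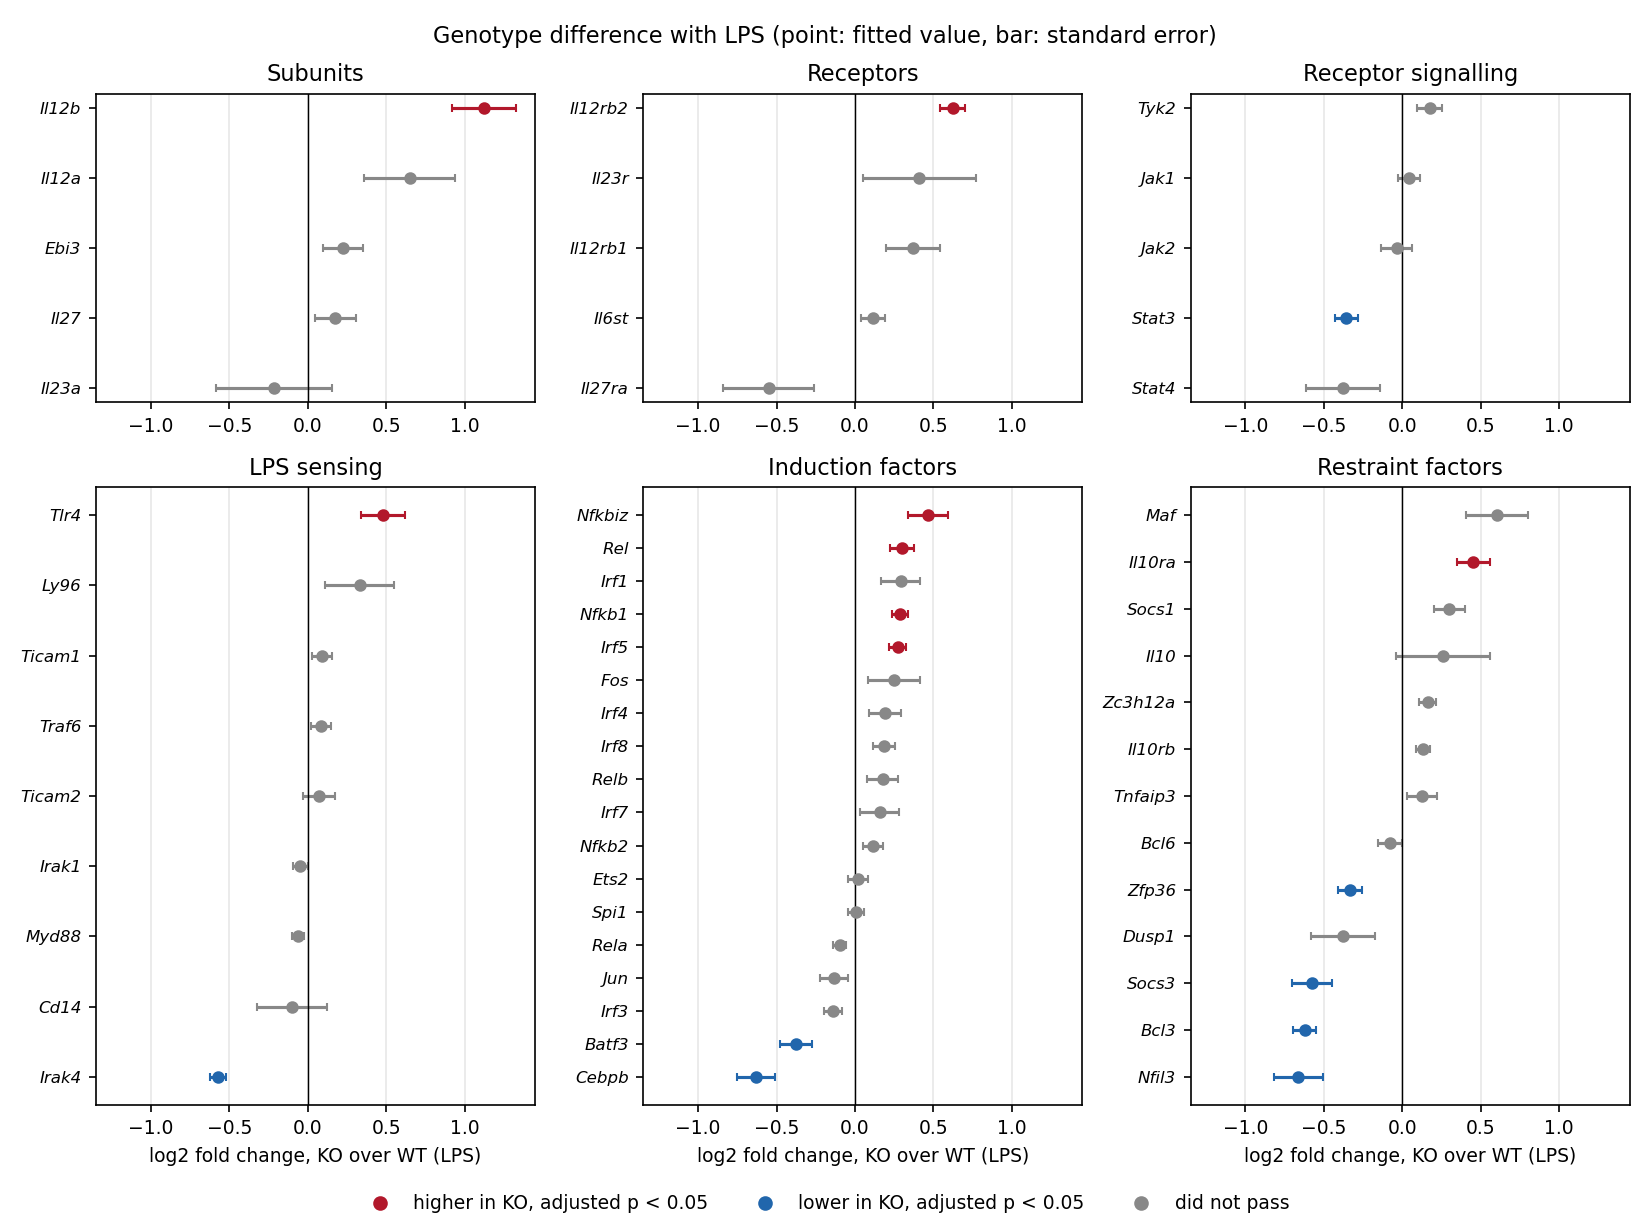
Log2 fold change of KO over WT with LPS for the 5 subunit genes and the 5 pathway lists; points are fitted values, bars are standard errors, red and blue mark genes called higher or lower in KO at an edgeR adjusted p under 0.05, and grey marks genes that did not pass. Il12b has the largest fitted value of the genes shown, and the calls among the sensing, induction and restraint genes go in both directions.

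Some dendritic cell markers also differed between genotypes with LPS, where 5.3% of all tested genes were called higher and 5.5% lower in KO cells. Of the 9 cDC1 markers, 4 were called lower (Xcr1, on which the cells were selected, Naaa, Itgae and Batf3) and 1 higher (Cadm1) by edgeR. Xcr1 averaged 281 ± 25.6 CPM in KO LPS and 428 ± 31.2 CPM in WT LPS cells (log2 fold change -0.61 ± 0.06, edgeR adjusted p = 1.4e-06), and Naaa, a lysosomal hydrolase, 514 ± 74.5 CPM in KO LPS and 986 ± 71.8 CPM in WT LPS cells (-0.94 ± 0.08, edgeR adjusted p = 1.2e-07). Of 5 cDC2 markers tested, 2 were called lower (Itgam and Clec12a). Over 8 markers of mature dendritic cells the summed level was 16248 to 25554 CPM in KO LPS libraries (median 19799) and 9492 to 18457 CPM in WT LPS libraries (median 13788), ranges that overlapped, with 3 of 8 called higher in KO cells by edgeR (the chemokine gene Ccl22 and the surface protein genes Cd80 and Cd83) and all 8 above 1 CPM in every group. Ccl22 made up most of the sum, at 12855 ± 3137 CPM in KO LPS and 7100 ± 1792 CPM in WT LPS cells. The 6 lymphocyte markers summed to 3.71 to 6.50 CPM in KO LPS and 2.00 to 3.90 CPM in WT LPS libraries, mostly the B cell gene Ms4a1, with 1 of 2 tested called higher, while the T cell genes Cd3e and Cd3g averaged at most 0.0601 CPM in LPS libraries and the natural killer cell gene Ncr1 was at 0 in all KO LPS libraries. The part of these marker differences in the Il12b and Il12rb2 differences was not tested.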

How the data were processed

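RNA was sequenced from 18 BMDC samples on the DNBSEQ platform as 150-base read pairs, per the labels' protocols, and HISAT, Bowtie2 and build GRCm39 are named in the submitters' processing notes. Not given in the sources used here are versions, annotation, counting program and strand setting. Per the file headers, the authors deposited estimated counts with TPM and FPKM columns. The deposited expected counts carry no normalization, and 6.37% were not whole at a tolerance of 0.001. The deposited TPM values are scaled to gene length and library, and were used for levels between genes and for ratios. The deposited FPKM values, scaled by the authors to length and depth, were not used.

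Counts were rounded, filtered with filterByExpr (minimum count 10, minimum total 15) and fitted with the quasi-likelihood test of edgeR 4.0.16 (R 4.3.3), with TMM factors, all 18 libraries and a mean per group. The call threshold was 0.05 for p-values adjusted by Benjamini-Hochberg over 11989 genes. The biological coefficient of variation was 0.0934. Replicates differed beyond counting error in all 32 pairs (chi-square per degree of freedom 2.68 to 74.2). The scripts were tested on simulated data. Alternatives were other size factors, total counts, DESeq2 1.42.0, limma 3.58.1, fewer groups, replicate blocks, another pseudocount and left-out libraries.

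The members and gene lists were chosen with earlier results of these data known. One further JAK and STAT gene is not reported here. Named were the members, the receptors, up to 4 called list genes per direction and list with a mean of at least 5 CPM in either group, and the 3 genes nearest to each member. Sequences are RefSeq promoter windows of build GRCm38.p6, and the shorter NF-kB form was chosen after the Il12b window had been read. Gene coordinates on GRCm39 are not given.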

Additional observations from a re-analysis of the deposited data

Results flagged for a closer look

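Of 46 sets of replicates tested for a stray value, 5 held one. Chance gives about 1 in 20 for normally distributed values. That rate does not hold for sets of counts near 0, such as Il23a and Il27 in WT control cells. Il12a was 4.30 CPM in KO LPS replicate 1, where the nearest KO LPS library had 2.15 CPM. In WT control replicate 4, Il12b was 18.3 CPM (nearest 13.4), Il23a was 0.0551 CPM from 2 counts (0 in the other 3), and Il27 was 0.0826 CPM from 3 counts (nearest 0.0278). That library also held 16.5 CPM of summed neutrophil markers, against 0.139 to 0.381 CPM in the other WT control libraries, and the part of this in the 3 values was not tested. Without it the KO over WT log2 fold change of Il12b in control cells was 0.41 (edgeR adjusted p = 0.611). Il27ra was 0.651 CPM in KO LPS replicate 5, where the nearest had 0.461 CPM.

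The response to LPS differed between genotypes for 3 list genes by the interaction term of edgeR. It was -0.54 ± 0.08 for Irak4 (adjusted p = 3.3e-04), -0.70 ± 0.15 for Batf3 (adjusted p = 0.0119) and -1.19 ± 0.20 for Irf7 (adjusted p = 0.00183), on the log2 scale. Irf7 was called between genotypes without LPS and not with LPS, and its level without LPS was 18.2 to 31.5 CPM in KO and 8.28 to 12.8 CPM in WT control cells.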

How the results depend on the processing

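The Il12b difference with LPS passed in all 27 alternatives. Among the 27, those that leave out a control library hardly bear on a contrast of LPS libraries, here and in the other counts of lost calls. Without WT LPS replicate 2 alone, 3 members were called with LPS and 1 in the interaction. Over all genes 3345 were then called with LPS and 1499 in the interaction, against 1294 and 458 in the main fit. Without KO LPS replicate 2 alone no member call changed. Without both libraries, 3 members were called with LPS (Il27 0.28, Ebi3 0.42) and 1 in the interaction, with 3238 and 1591 genes called in all. The Il23a to Il12b ratio was then -1.42 (exact permutation adjusted p = 0.143, from a raw p of 0.0286, the smallest that 4 against 4 allows, so that test could not pass). Over left-out libraries, called members ranged from 1 to 3 with LPS and from 0 to 1 in the interaction, with Il27 at 0.10 to 0.33, Ebi3 at 0.14 to 0.39, Il23a at -0.38 to 0.14, and the ratios of Il12a to Il12b at -0.77 to -0.50, Il23a to Il12b at -1.48 to -1.18 and Il27 to Ebi3 at -0.15 to 0.032. The Il23a to Il12b ratio missed the threshold without any 1 of the WT LPS libraries (exact permutation adjusted p up to 0.0794), with a difference of -1.22 to -1.41 and the ranges still apart. It passed without any 1 of the KO LPS libraries. A pseudocount of 1 gave -0.77 for Il12a to Il12b (adjusted p = 0.0397, exact permutation).

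Same-numbered replicates did not pair by the check used (correlation of deviations 0.00923 to 0.353 with LPS, 2 of 5 over 0.1, and 0.0287 to 0.248 in controls, 1 of 4), nor did LPS and control libraries of neighbouring numbers in both genotypes (0.140 to 0.273 in WT, 4 of 4 over 0.1, and -0.0308 to 0.136 in KO, 2 of 4). A replicate block by title number called 1 member without LPS (Ebi3, 0.22), among 990 genes called, against 289 in the main fit. Sign flips gave -1.30 for Il23a to Il12b (exact permutation adjusted p = 0.104, smallest raw p 0.0625). A replicate block by run of library numbers called 4 members with LPS (Il12a 0.75, Il27 0.29, Ebi3 0.43, besides Il12b) and 1 in the interaction (Il12b 1.18, edgeR adjusted p = 0.00192). That block called 3689 genes with LPS and 2081 in the interaction. The Ebi3 interaction was 0.027 with RLE factors, 0.027 with DESeq2, 0.021 with limma-voom, 0.21 without both replicates 2 and 0.22 with the run block, and -0.092 to 0.15 over left-out libraries. Total counts turned Il6st with LPS to -0.10 in KO and -0.080 in WT cells. Genes called with LPS ranged from 619 to 3689, without LPS from 114 to 1174 and in the interaction from 208 to 2081. The causes were not tested. List calls ranged from 1 to 3 for JAK and STAT genes, 1 to 5 for sensing, 3 to 10 for induction and 4 to 10 for restraint. Il23a rests on 8 to 26 counts per LPS library.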

Other observations

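Genes of the lymphocyte response to these cytokines were nearly absent. Of 6 listed, 4 were in the table and 1, Tbx21, passed the filter. Ifng, which IL-12 is known to induce, had 5 counts over the KO LPS libraries, 2 over the WT LPS libraries and 0 in controls. Tbx21 averaged 0.270 CPM in KO LPS, 0.180 CPM in WT LPS, 0.922 CPM in KO control and 0.969 CPM in WT control cells. It was lower with LPS in both genotypes (log2 fold change -1.75 in KO, edgeR adjusted p = 1.1e-04, and -2.42 in WT, edgeR adjusted p = 5.3e-06) and was not called between genotypes.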
